A study of Zea mays with 18 samples.

Results

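The features described here are the 174 of 45260 in the table whose identifier starts with GRMZM5G. They were taken by that prefix alone, a rule that uses no measured value. The prefix was chosen with earlier results of these data known. Most other features, 43484 in all, carry Zm00001d identifiers and are called gene models below. Seedlings of the maize inbred line B73 germinated for 3 days in the dark and then grew in nutrient solution. Treated seedlings had 1 nM epibrassinolide (EBL) in that solution for 48 h, and control seedlings are labelled as controls, with no statement of a solvent. Both kinds of seedling were divided into the primary root, the shoot (stem, coleoptile and apex) and the 1st leaf, which gives 6 groups of 3 samples and 18 samples in all. The deposited table holds 1 RPKM value (reads scaled to feature length and library size) per feature and group.

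EBL is a brassinosteroid, one of the steroid hormones through which plants regulate cell expansion. Identifiers that start with GRMZM belong to earlier annotations of the B73 genome, whereas Zm00001d identifiers belong to the annotation of B73 RefGen_v4. Features of this kind have been described as organelle-type. As background, plastids and mitochondria carry genomes apart from the nuclear one, plastid transcripts are abundant in leaves, and most organelle transcripts lack the long poly(A) tail by which polyA libraries capture RNA.

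Neither the table nor the RefSeq gene table used for names (built on Zm-B73-REFERENCE-NAM-5.0, not the build of the table) places the 174 features in a genome. None of them matched a RefSeq entry (0 of 174). That gene table does list 1228 genes with another GRMZM5G identifier as a synonym, all 1228 on the 10 nuclear chromosomes and 0 among its 158 plastid and 214 mitochondrial genes. In that table the prefix thus occurs on nuclear genes. Since none of the 174 matched, this does not show where they lie. The features are called here by their identifier, with no gene name, role or location, and no sequence is given.

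With 1 value per group there is no spread between replicates, and a test inside an organ could not be run. The columns have no depth that could be read from RPKM values. An exact paired test over the 3 organs cannot go below p = 0.25, so none was run. A feature was counted as different where its log2 ratio of RPKM + 1 reached 1 in either direction (2-fold on that scale), which understates changes at low values. The summed RPKM of EBL leaves was 1.25 times that of control leaves, and in shoots and roots the ratio was 1.10 and 1.01. Non-coding ENSRNA features took 5.55% of the sum in control roots and 21.5% in control leaves. Markers of the organs were not checked, since the gene models have no symbols here.

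Most GRMZM5G features were low or listed at 0. In all 6 columns 28 were listed at 0 (16.1%, against 16.3% of gene models), 46 were above 0 in some columns, and 100 were above 0 in every column. The measured set, with at least 1 RPKM in any column, held 69 features (39.7%, against 60.1% of gene models). All 69 were above 0 in all 6 columns, and 13 were at 1 RPKM or more in all 6. No feature listed at 0 anywhere exceeded 0.491 RPKM elsewhere. The members just inside the limit were GRMZM5G866990, with a highest value of 1.01 RPKM, and GRMZM5G877454, with 1.05. Just outside were GRMZM5G837015, with 0.973 RPKM, and GRMZM5G861212, with 0.964.

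The 174 features together made up a small part of each column. In control their summed RPKM was 119 in the root, 228 in the shoot and 1007 in the leaf. In the EBL columns the sums were 143, 292 and 768 in the same order. As a share of the column these were 0.0125%, 0.0244% and 0.0784% in controls and 0.0149%, 0.0284% and 0.0480% with EBL. The sum was thus higher with EBL in roots and shoots and lower in leaves.

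GRMZM5G801074 alone held 40.6% of the sum in control leaves and 2.17% in control roots. Without it the sums in leaves were 598 RPKM in control and 471 with EBL.

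The measured features separated into a set with far more RNA in leaves and a set without such an excess in leaves. A line at 4-fold between control leaves and control roots, drawn on plain RPKM ratios after the values were seen, left 39 features above it and 30 below. No ratio lay between 2.37, that of GRMZM5G824660, and 7.66, that of GRMZM5G899836. The EBL columns, which the line did not use, gave the same 39 features, with no ratio between 1.59 and 6.86. The 39 are called leaf-high below and the 30 are called the remaining features.

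**Figure D1:**
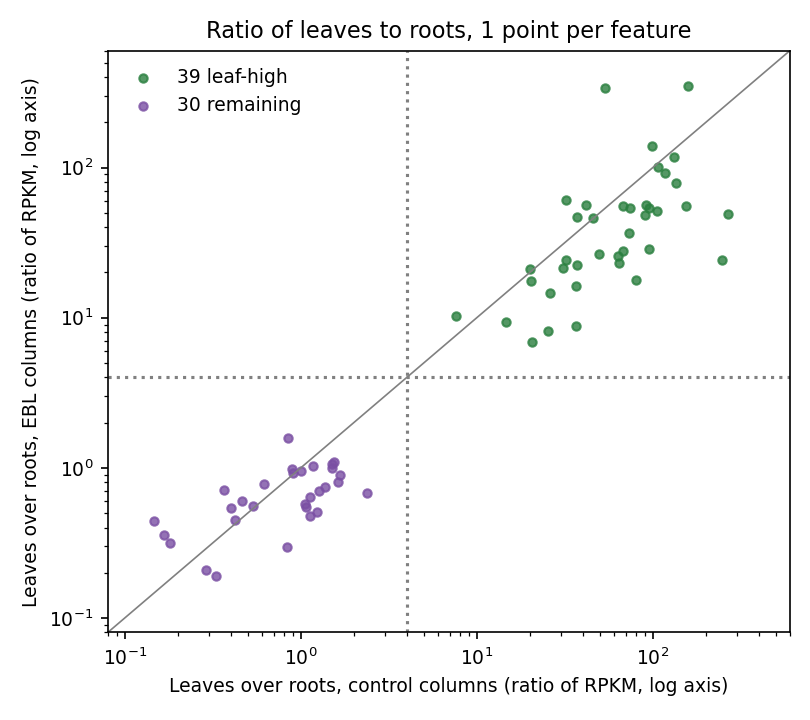
Ratio of leaves to roots in the control columns (x) and the EBL columns (y), both as ratios of RPKM on log axes, with 1 point for each of the 69 measured features. Dotted lines mark 4-fold and the solid line marks equality. The 39 leaf-high features lie above 4-fold on both axes and the 30 remaining features below it on both.

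Leaf-high features had their highest control value in leaves, an intermediate one in shoots and the lowest in roots, in 39 of 39 cases, where leaves above roots was fixed by the 4-fold line. Gene models above the same line and in the same range of control leaf RPKM had this order in 74.7%. With EBL it held for 38 of 39, against 71.2% of those gene models. The exception, named after its values were seen, was GRMZM5G813608, at 1.28 RPKM in EBL leaves and 1.85 in EBL shoots. Their median was 0.214, 1.66 and 8.77 RPKM in control roots, shoots and leaves and 0.221, 2.27 and 6.36 with EBL. The median ratio of control leaves to control roots was 64.5 and the highest was 267. Each of these levels mixes the number of cells and the RNA per cell, which bulk samples cannot tell apart.

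By the 2-fold rule 36 of the 69 measured features were higher in control leaves than in control shoots, against 14.9% of all features compared. In the EBL columns 28 were, against 17% of all features compared. Between control shoots and control roots 23 were higher in shoots, against 12.2%, and with EBL 29 were, against 12.9%. Each of these features was leaf-high. Leaves against roots set the line itself, so its counts, 38 in control against 15.9% and 37 with EBL against 17.9%, are given as a description.

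GRMZM5G801074 had the highest mean of the 6 columns and was the highest member in shoots and leaves, whereas in roots GRMZM5G881135 was the highest. Its values were 2.58 RPKM (control) and 0.849 (EBL) for roots, 47.4 and 74.2 for shoots and 409 and 296 for leaves. Its EBL value was thus below control in roots and leaves and above it in shoots. The log2 effects were -0.95, 0.64 and -0.47, and none reached 2-fold on the RPKM + 1 scale; without a pseudocount the root effect was -1.60.

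Across the 6 columns, 3 gene models followed GRMZM5G801074 most closely among 17899 with a mean of at least 5 RPKM. Pearson's r of log2(RPKM + 1) over the 6 columns was 0.9995 for Zm00001d002490, 0.9995 for Zm00001d018511 and 0.9988 for Zm00001d016802. The first had 3.55, 23.8 and 95.2 RPKM in control roots, shoots and leaves and 2.25, 31.6 and 69.7 with EBL. The second, Zm00001d018511, spanned far less, from 6.10 RPKM in control roots to 14.4 in control leaves, with 9.92 in control shoots and 5.42, 10.7 and 14.1 in the EBL columns. The third, Zm00001d016802, stood at 4.85, 55.2 and 283 RPKM in the control columns and at 2.74, 60.5 and 219 with EBL. All of them had, like GRMZM5G801074, lower EBL values in roots and leaves and higher ones in shoots. They were picked for likeness over these same columns, so the shared directions are no separate likeness. A high r says nothing about the size of the differences between organs, and these values describe likeness over 6 columns that share their libraries across features.

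The next leaf-high features by mean level were well below it. GRMZM5G815553 had 0.441, 6.32 and 59.6 RPKM in control roots, shoots and leaves and 0.637, 6.82 and 49.9 with EBL. For GRMZM5G808939 the control values were 0.3298, 4.30 and 43.3 RPKM and the EBL values 0.228, 6.61 and 26.8. GRMZM5G815606 followed with 0.304, 7.90 and 32.2 RPKM in control and 0.498, 7.9997 and 25.5 with EBL. All of these were lower with EBL in leaves and higher with EBL in shoots.

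GRMZM5G804708 had 0.516, 5.46 and 38.1 RPKM in control roots, shoots and leaves and 0.399, 6.51 and 21.5 with EBL. GRMZM5G853305 had 0.365, 4.91 and 26.6 RPKM in control and 0.696, 5.43 and 25.4 with EBL. In both, the shoot value was higher with EBL and the leaf value lower, and their root values went opposite ways. The other leaf-high features reached between 1.05 and 25.9 RPKM in control leaves, and 8 of the 39 stayed under 5 RPKM in every column.

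**Figure D2:**
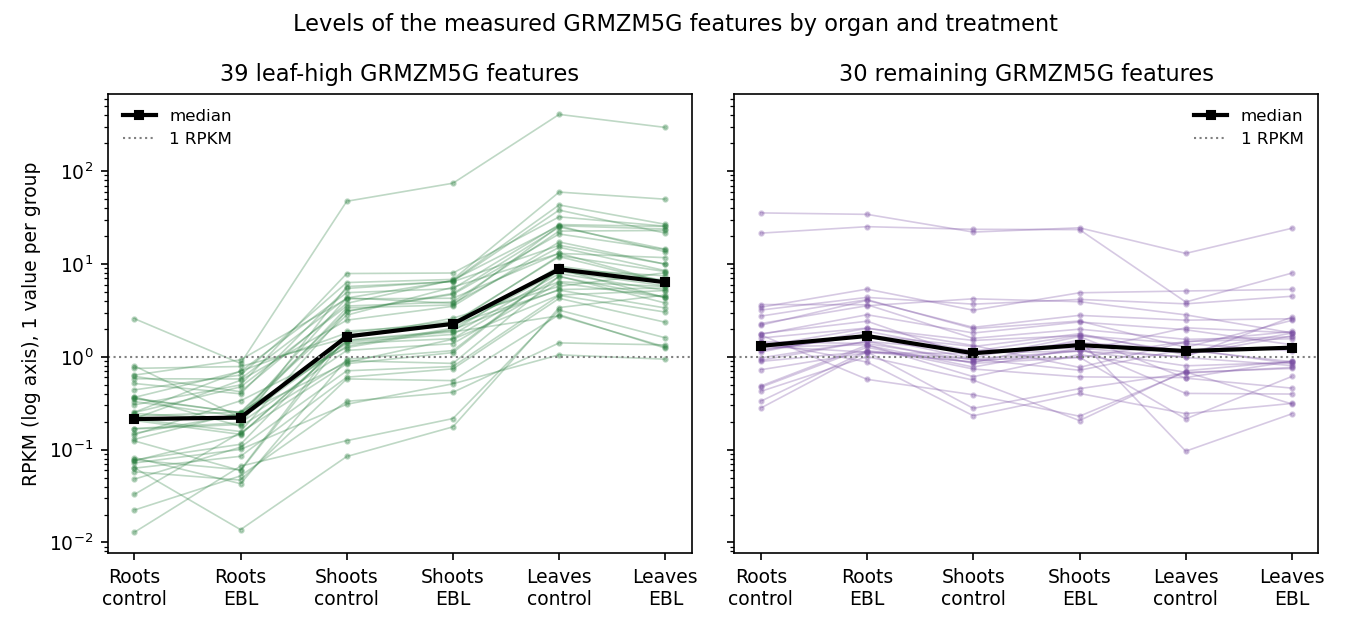
RPKM on a log axis in each of the 6 groups, 1 value per group, for the 39 leaf-high features (left) and the 30 remaining features (right); thin lines join the values of 1 feature and black squares give the median. The leaf-high median climbs from 0.214 RPKM in control roots to 8.77 in control leaves, while the median of the remaining features stays between 1.09 and 1.68 RPKM.

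The remaining features were mostly low, and their medians were close in the 3 organs. The median was 1.31, 1.09 and 1.15 RPKM in control roots, shoots and leaves and 1.68, 1.34 and 1.26 with EBL. In 20 of 30 all 6 values lay within a factor of 3 (66.7%), against 37.3% of the 16405 gene models below the same 4-fold line and within the same range of mean RPKM. The other 10 varied more, and control leaves over control roots went down to 0.147 for 1 of them. Under 5 RPKM in every column were 27 of the 30 (90.0%), against 23.0% of those gene models. The range was shared and the level was not. The median of those gene models was 8.25, 6.95 and 3.96 RPKM in control roots, shoots and leaves.

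Roots held the highest control value in 11 of the 30, shoots in 9 and leaves in 10. In the EBL columns roots were highest in 21, shoots in 5 and leaves in 4. Among the gene models in the same range of mean RPKM, roots were highest in 49.1% in control, shoots in 35.9% and leaves in 14.9%. With EBL the shares were 52.2%, 31.4% and 16.4%.

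Among the 30, GRMZM5G881135 and GRMZM5G876913 alone reached 10 RPKM. GRMZM5G881135 had 35.5, 22.1 and 13.01 RPKM in control roots, shoots and leaves and 34.3, 24.6 and 24.3 with EBL. GRMZM5G876913 stood at 21.5, 23.7 and 3.90 RPKM in control and 25.3, 23.5 and 7.99 with EBL. Both had their lowest values in leaves, and in both the leaf value was nearer to the other organs with EBL. GRMZM5G807592, next in roots, had 3.43, 3.18 and 5.12 RPKM in control and 5.37, 4.90 and 5.33 with EBL.

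The effect of EBL was asked in each organ. None of the 69 features passed 2-fold in roots, shoots or leaves, against 2.48%, 0.832% and 6.04% of all features compared. The pseudocount of 1 shrinks ratios at low values, so counts of 0 say little about the set. With a pseudocount of 0.1 in place of 1, 10 passed in roots, 6 in leaves and 1 in shoots.

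In leaves the leaf-high features were lower with EBL. Of the 39, 34 were lower and 5 higher (87.2% lower, against 51.6% of all features compared), a direction that held under each scaling tried. With the sum of the 174 features made equal in every column, 25 of 39 were lower, with a median of -0.15. As deposited, the median effect was -0.52 (log2 of RPKM + 1, interquartile range -0.73 to -0.14), against -0.01 for all features compared. On plain RPKM the median EBL value was 0.673 of control. On the RPKM + 1 scale, 16 of the 39 were at least 1.5-fold lower, against 6.21% of all features. By the same scale 0 were at least 1.5-fold higher, against 13.7%.

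Gene models of the same organ pattern did not share this direction. Above the same 4-fold line and within the same range of control leaf RPKM, 1.05 to 409, there were 2673 gene models. Of these, 42.2% were lower in EBL leaves, and their median effect was 0.12. They are called matching gene models below but were more abundant, with a median of 24.0 RPKM in control leaves against 8.77. With the summed gene models made equal in every column, the median of the leaf-high features was -0.78 and that of these gene models -0.18.

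Among the measured leaf-high features the lower values in leaves were found at low, middle and high levels alike. Split by mean RPKM into 3 sets of 13, the leaf-high features had median ratios of EBL to control leaves of 0.661 in the lowest set, 0.674 in the middle and 0.678 in the highest. The number of features lower with EBL was 10, 12 and 12 of 13. All 39 met the minimum of 1 RPKM in control leaves, and 38 did in EBL leaves. Without that minimum the median leaf effect of leaf-high features was -0.25. Summed without GRMZM5G801074, the leaf-high features came to 534 RPKM in the leaves of controls and 386 with EBL, 27.7% lower.

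By the RPKM + 1 scale the lowest leaf effects belonged to GRMZM5G831540 and GRMZM5G844074. GRMZM5G831540 had leaf values of 13.1 RPKM in control and 6.36 with EBL (-0.93), while its shoot values were 4.21 and 4.28 and its root values 0.635 and 0.928. GRMZM5G844074 stood at 25.7 and 13.5 RPKM in leaves (-0.88), at 3.37 and 3.63 in shoots and at 0.800 and 0.221 in roots. In both, the leaf values differed far more than the shoot values.

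Higher in EBL leaves were 5 leaf-high features, named here after their values were seen. GRMZM5G815453 had 3.39 RPKM in control and 4.63 with EBL, and GRMZM5G899836 had 5.75 and 8.06. GRMZM5G818111 had 4.64 and 5.17 RPKM, GRMZM5G838396 had 5.32 and 5.51, and GRMZM5G830210 had 22.6 and 23.0. For the last pair the difference was under 5%.

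**Figure D3:**
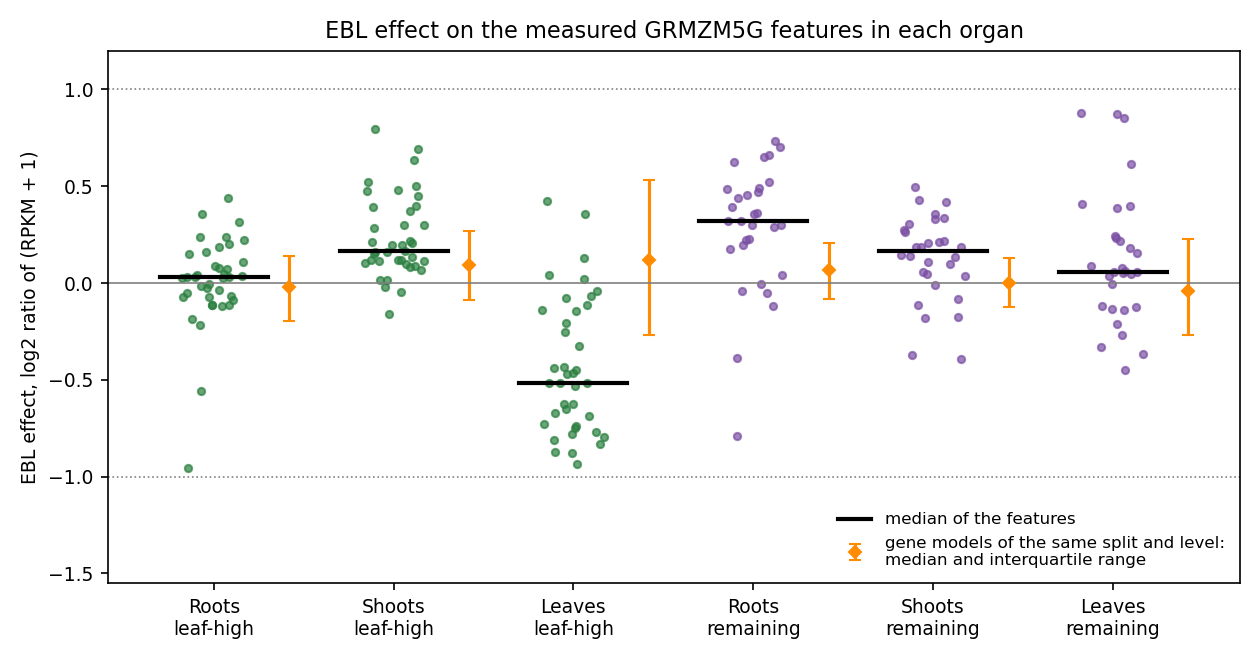
EBL effect as the log2 ratio of RPKM + 1 in each organ, with 1 point per feature, black bars for the medians and dotted lines at 2-fold. Orange diamonds and bars give the median and interquartile range of gene models on the same side of the 4-fold line. Those gene models lay in the same range of RPKM but had higher median levels. The leaf-high features in leaves have a median of -0.52, beside 0.12 for the matching gene models.

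In shoots the direction was the opposite. Of the 39 leaf-high features, 36 were higher with EBL and 3 lower (92.3% higher, against 53.8% of all features compared and 63.5% of the matching gene models). Their median effect was 0.17, against 0.02 for all features and 0.09 for the matching gene models. With the sum of the 174 features made equal in every column, the median was -0.013 and 21 of 39 were lower. The median ratio of EBL to control was 1.25 on plain RPKM.

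The largest shoot effects belonged to GRMZM5G855343 and GRMZM5G804776. GRMZM5G855343 had 2.81 RPKM in control and 5.63 in EBL shoots (0.80), and at 13.02 and 11.7 in leaves. GRMZM5G804776 stood at 3.77 and 6.71 RPKM in shoots (0.69) and at 25.9 and 23.8 in leaves. At least 1.5-fold higher in EBL shoots on the RPKM + 1 scale were 3 of the 39, against 1.65% of all features.

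Lower in leaves and higher in shoots at once were 31 of the 39 leaf-high features (79.5%), against 23.2% of the matching gene models. None showed the reverse (0 of 39), against 17.6%. With 34 of the 39 lower in leaves and 36 higher in shoots, at least 31 had to show both. The ratio of leaves to shoots was smaller with EBL than in control for 39 of 39, as deposited and under median-ratio scaling, quantile normalization and with the summed gene models made equal, and for 27 of 39 with the sum of the 174 features made equal. Its median was 6.38 in control and 3.18 with EBL, and the change per feature ran from 1.09-fold for GRMZM5G830210 to 3.44-fold. For the matching gene models the ratio was smaller in 49.7%. The control and EBL columns of leaves and of shoots are separate groups, so the leaf and shoot effects share no column. Both organs were taken from the same kinds of seedling, so the effects may not be independent.

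**Figure D4:**
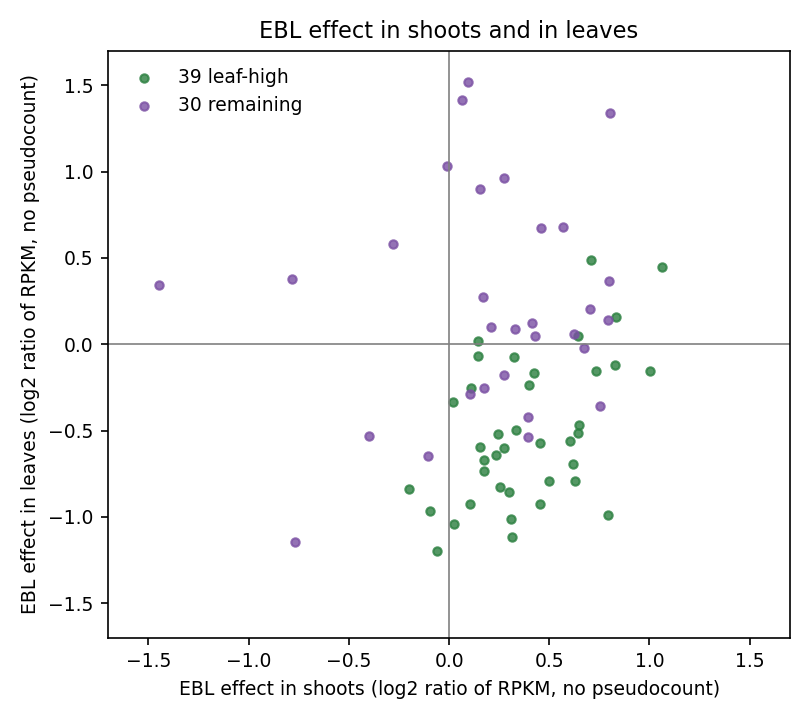
EBL effect in shoots (x) and in leaves (y) as log2 ratios of RPKM without a pseudocount, 1 point per feature for the 69 measured features. Of the 39 leaf-high features, 31 lie in the lower right part, higher with EBL in shoots and lower in leaves.

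The effect in leaves was below that in shoots by at least 1 (log2 of RPKM + 1) for 8 leaf-high features, against 0.789% of all features. No measured feature showed the reverse, against 4.71% of all features. In either direction 5.5% of all features differed by that much. By any amount the leaf effect was below the shoot effect for 38 of 39, against 54.1% of all features, the exception being GRMZM5G815453. The widest gap was that of GRMZM5G856777, with leaf values of 25.0 RPKM in control and 14.4 with EBL, beside 3.11 and 4.82 in shoots. It was named after its values were seen. Between leaves and roots 2 measured features differed by at least 1, against 7.91%, and between shoots and roots 1 did, GRMZM5G801074, against 3.23%. Between organs none of these differences was tested.

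In roots the leaf-high features were near the lower end of the measured range and showed no common direction. With EBL 22 were higher and 17 lower (56.4% higher, against 59% of all features), with a median effect of 0.03, which was -0.039 with the sum of the 174 features made equal. Apart from GRMZM5G801074 in control, at 2.58 RPKM, all of their root values were under 1 RPKM.

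The remaining features were mostly higher in EBL roots. Of the 30, 24 were higher and 6 lower (80.0% higher, against 59% of all features and 62.8% of gene models in the same mean range). The direction of their median was the same under each scaling tried, and as deposited the median was 0.32, against 0.05 for all features and 0.07 for those gene models. On plain RPKM the median ratio was 1.48. Features could meet the minimum of 1 RPKM through EBL roots, where 28 of the 30 reached it, against 21 in control roots. Without that minimum the median effect of the remaining features was 0.14. On the RPKM + 1 scale, 5 of the 30 were at least 1.5-fold higher, against 3.31% of all features. By the same scale 1 was at least 1.5-fold lower, against 4.23%.

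The largest root effects upward were those of GRMZM5G824660, from 0.281 RPKM in control to 1.13 with EBL (0.73), and GRMZM5G801746, from 0.333 to 1.17 (0.70). GRMZM5G824660 reached 1 RPKM in EBL roots alone, so it entered the measured set only through that column. GRMZM5G801746 reached 1 RPKM only with EBL, in roots and in shoots (0.872 RPKM in control shoots and 1.52 with EBL). It too entered the set only through EBL columns. In leaves GRMZM5G824660 stood at 0.667 and 0.770 RPKM and GRMZM5G801746 at 0.0963 and 0.243. The largest root effects downward were those of GRMZM5G801074, given above, and GRMZM5G834298, at 1.72 RPKM in control and 0.572 in EBL roots (-0.79). GRMZM5G834298 reached 1 RPKM in control roots alone and entered the set only through that column. It was the 1 remaining feature lower with EBL in all 3 organs, with 0.390 and 0.229 RPKM in shoots and 0.687 and 0.311 in leaves.

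In shoots 23 of the 30 remaining features were higher with EBL (76.7%, against 53.8% of all features). Of gene models in the same range of mean RPKM, 49.8% were. The features had a median effect of 0.17, which was -0.056 with the sum of the 174 features made equal. Without the minimum of 1 RPKM it was 0.057. The largest effects downward in shoots were those of GRMZM5G872234, at 1.32 RPKM in control and 0.769 with EBL (-0.39), and GRMZM5G866990, at 0.561 and 0.206 (-0.37). Both had higher EBL values in roots, at 1.60 and 2.04 RPKM for GRMZM5G872234 and at 0.425 and 1.01 for GRMZM5G866990. The latter reached 1 RPKM in EBL roots alone.

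In leaves 20 of the 30 were higher with EBL (66.7%, against 48.4% of all features), and the median effect of 0.06 became -0.076 with the summed gene models made equal in every column. The largest effects upward in leaves were those of GRMZM5G834666, from 1.00 RPKM in control to 2.68 with EBL (0.88), and GRMZM5G876913 (0.87). Higher with EBL in all 3 organs were 11 of the 30 (36.7%), against 19.9% of gene models in the same range of mean RPKM.

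The features that stayed under 1 RPKM in every column leaned the same way in roots. Of the 105, 77 were above 0 in some column. Among the 50 above 0 in both root columns, 39 were higher with EBL (78.0%), against 60.4% of gene models under 1 RPKM. In shoots 35 of 48 were higher (72.9%, against 45.5%) and in leaves 27 of 44 (61.4%, against 48.6%). The summed RPKM of the 105 was 8.26 in roots of controls and 14.2 with EBL; the pair was 8.10 and 11.4 for shoots and 9.85 and 12.2 for leaves. At such levels values may rest on very few reads, and how many is unknown.

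Within each set the order of the features was kept across treatments. Spearman's rho between control and EBL over the 39 leaf-high features was 0.951 in leaves, 0.970 in shoots and 0.811 in roots. Over the 30 remaining features it was 0.867, 0.900 and 0.770. Between control leaves and control shoots rho was 0.891 for the leaf-high features. The effects of EBL in leaves and in shoots were related by rho = 0.447 over the leaf-high features and 0.02 over the remaining ones. These are correlations across features that share libraries and are not independent replicates.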

How the data were processed

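Stranded polyA libraries were made from total RNA of 18 samples, per the labels' protocols. The authors deposited RPKM values in 6 columns, each named for an organ with its treatment, per the file headers. The way in which the 3 replicates of a group were combined, and any scaling between columns, are not given in the sources used here. CASAVA 1.8, Trimmomatic 0.33, TopHat2 2.0.13, Cufflinks 2.2.1 and the build B73 RefGen_v4 are named without roles, per the submitters' processing notes.

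The planned tests on single libraries could not be run on 1 value per group and were replaced by a rule of size. Features entered a comparison when at least 1 column reached 1 RPKM and both columns compared were above 0. Effects are log2 ratios after adding a pseudocount of 1, and plain ratios are named as such. Percentages beside member counts are over all features compared. The gene models set beside each set were above 0 in all 6 columns and on the same side of the 4-fold line. They lay within 1.05 to 409 RPKM in control leaves or 0.588 to 25.6 RPKM in the mean over the columns. Only the range was matched, and their median levels were higher.

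The members, the comparisons and the rule for named features were chosen with earlier results of these data known. That rule took the 8 members with the highest mean and the 3 highest per organ, the 2 widest differences between leaves and roots in each direction, the 2 largest effects in each direction per organ, and 2 members on each side of 1 RPKM. The 4-fold line and all counts by set were added after the values were seen. Simulated data with known changes were used to test the rule of size. Changes were placed only on features of at least 5 RPKM in control, so the simulation does not bear on lower ones. Values were computed in Python 3.11.15 (scipy 1.17.1, pandas 2.3.3, numpy 2.4.6) and drawn with matplotlib 3.10.9.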

Additional observations from a re-analysis of the deposited data

How the results depend on the processing

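No paired analysis was possible because the table holds 1 value per group, so replicates could be neither left out nor paired. Results were recomputed under 13 other settings, each applied to the results it bears on, of which the missing pseudocount, the other lines between the sets and the sum without the most abundant feature were added after the data were seen. Depth is unknown. Of 194 recomputed main values 136 kept their value within the limits set and 58 moved. The sign of 4 set medians changed, each under 0.2 in size: the remaining features in leaves with summed gene models made equal, and, with the sum of the 174 features made equal, the leaf-high ones in roots (-0.039) and both sets in shoots. The limits were 0.1 for a median (log2) and 1.5 times for a count. Drawing the line on shoots against roots moved none of the main values. Drawing it on EBL columns gave the same 39 features, and keeping values of 0 added none, since no measured feature was at 0. Under the line on EBL columns and the kept values of 0 no value could move, and these values are counted among the 136.

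With a pseudocount of 0.1, 2-fold counts were 10 in roots, 1 in shoots and 6 in leaves, against 0 in each as reported. Medians were 0.53 for remaining features in roots and 0.30 for leaf-high ones in shoots. Shoots were above roots for 37 in control, and effects differed by at least 1 for 17 features (leaves and roots), 21 (leaves and shoots) and 11 (shoots and roots). With no pseudocount the 2-fold counts were 18, 3 and 9. Medians in roots were 0.16 (leaf-high) and 0.57 (remaining) and in shoots 0.32 and 0.27. Shoots were above roots for 39 in control, and the differences numbered 22, 23 and 18. With a pseudocount of 2, shoots were above roots for 15 in control and 19 with EBL, and the differences of leaves from roots and shoots numbered 1 and 3. A pseudocount shrinks ratios of low values by construction.

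Without the minimum of 1 RPKM, medians were 0.14 (roots, remaining), 0.057 (shoots, remaining) and -0.25 (leaves, leaf-high). With a mean of at least 5 RPKM over the columns compared, fewer features entered. In roots the median of the remaining ones was 0.085 and rested only on GRMZM5G881135 (-0.05) and GRMZM5G876913 (0.22). In leaves it was 0.85 and rested only on the same features (0.85 and 0.87) and GRMZM5G807592 (0.05). Counts of leaves above roots, leaves above shoots and shoots above roots were 18, 19 and 1 in control and 14, 14 and 1 with EBL, and effect differences numbered 0, 3 and 0.

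Under median-ratio scaling 1 feature was 2-fold in leaves and 5 differed between leaves and shoots. Under quantile normalization 1 differed between leaves and roots. With summed gene models made equal, 9 were 2-fold in leaves, the leaf medians were -0.78 (leaf-high) and -0.076 (remaining), leaves were above shoots for 16 with EBL, and 7 and 15 differed between leaves and roots and between leaves and shoots. That scaling moved the median of all gene models in leaves by -0.21. With the sum of the 174 features made equal, 5 were 2-fold in roots and 2 in leaves. Shoot medians were then -0.013 (leaf-high) and -0.056 (remaining), leaf medians -0.15 and 0.18, leaves were above shoots for 3 in control and 3 with EBL, and differences numbered 4, 3 and 5. This last scaling removes any change the 174 share. The cause of the other shifts was not tested.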
